A study of Mus musculus with 14 samples.

Results

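Calcium signals inside a cell are read by calmodulin, and the 39 genes described here encode calmodulin and the proteins that it or calcium itself controls: the calmodulin-dependent kinases and protein kinase C, the phosphatase calcineurin with its regulators, the NFAT, CREB and MEF2 transcription factors, and the calpain proteases. Members were chosen by name and role, with earlier results of these data known, and they made up 39 of the 48714 gene labels listed in every library. The cells were haematopoietic stem cells (HSCs), which give rise to all blood lineages, from the bone marrow of C57BL/6 mice. Sorting separated [Ca2+]high HSCs, called calcium-high below, from [Ca2+]low HSCs, called calcium-low. From each population 7 libraries of 100 sorted cells were made, numbered 1 to 7, with no treatment named in the labels. Neither an age, a genotype other than the strain, nor the marker gate of the sort is given in the labels. The labels do not state whether libraries came from separate animals, so all p-values measure only the spread between these samples.

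When calcium enters the cytoplasm it binds calmodulin, which then activates the CaM kinases and calcineurin. Calcineurin removes phosphates from NFAT proteins, so that they enter the nucleus, whereas CaM kinases phosphorylate CREB and release MEF2 factors from their repressors. Calpains bind calcium directly and cut selected proteins, and calpastatin blocks them. Most of this control acts on protein activity and location, which transcript levels do not measure.

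The values were RPKM, the reads of a gene divided by the length of its model and scaled to the depth of the library. Depth in listed genes was 3.58 to 7.39 M reads for replicates 1 to 3 and 8.28 to 10.3 M for replicates 4 to 7. For a 1-kb gene at 0, the limit that 3 reads set lay between 0.0808 and 0.210 RPKM over the libraries and covers counting error only. All 11 HSC markers were above 0 in every library, among them Kit at 59.3 to 76.1 and Hlf at 24.4 to 56.4 RPKM. Of the 7 markers of T or NK cells, 2 (Cd3e and Cd3g) were at 0 in all 14, while Nkg7 was at 3.38 to 33.0 RPKM. Of the 7 B cell markers, 1 (Ms4a1) was at 0 in all, while Cd79b was at 2.82 to 6.22 RPKM. Calcium-low replicate 3 stood apart: its 8 neutrophil markers summed to 759 RPKM against 14.4 to 44.4 in the other calcium-low libraries, its 6 markers of cycling cells to 209 against 8.25 to 24.0, and its 11 HSC markers to 187 against 239 to 295. Not all of the 8 neutrophil markers were raised in calcium-low replicate 3. S100a8, S100a9, Ngp, Camp and Ltf had their highest values of all libraries there. Prtn3 had its lowest, at 4.74 RPKM, and Mpo was at 1.31 RPKM, below its median of 4.49 over all libraries. In calcium-high replicate 3 the HSC markers summed to 191 RPKM, against 290 to 363 in the other calcium-high libraries. Log2 fold changes without replicate 3 are therefore given where the sign turned, a call changed or the value moved by over 1.5 times. A sum over 4 Y-linked genes, which only male cells carry, was 15.0 to 21.8 RPKM in replicates 1 and 2 of both groups and at most 0.0459 in replicates 3 to 7.

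Of the 39 members, 32 had a mean of at least 1 RPKM over all libraries and were tested together with the other genes above that level, 9921 in all, with limma on log2(RPKM + 1). A fold change on this scale understates the change of a gene at low RPKM. A gene counted as called at a Benjamini-Hochberg adjusted p under 0.05. No member was called, and neither was any other gene (0% of 9921), while 5 of 32 members and 6.74% of all genes had an unadjusted p under 0.05. Deviations from the group means correlated between libraries of the same number, so a fit with the replicate number as a block was also run. Only 5 of the 14 libraries correlated best with their own number, so pairing by number remained an assumption. The difference between the replicate sets described below was not removed from these correlations. The blocked fit called 0.917% of all genes and again 0 of the 32 members, of which 6 had an unadjusted p under 0.05 against 13.9% of all genes. Over the 32 members the adjusted p with the block ran from 0.0738 for Capn1 to 0.998 for Mef2d. With limma-voom on the reads recovered from the RPKM values, 4 members were called without the block and 6 with it, against 7.06% and 8.46% of all genes.

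The members as a whole had the same centre as all genes. Their median log2 fold change, calcium-high minus calcium-low, was -0.03, the same as the -0.03 of all tested genes, and 15 of 32 were positive. The extremes were Capn1 at -0.39 and Rcan3 at 0.39. In no member were the 7 calcium-high libraries all above or all below the 7 calcium-low libraries, which 0.141% of all genes showed. By replicate number, 4 members pointed the same way in 7 of 7 pairs, against 5.51% of all genes: Rcan3, Crtc1 and Capn2 were higher and Capn1 lower in calcium-high. Median-of-ratios scaling of the libraries moved the number of members that were higher in 4 or more pairs from 17 to 13, and Capn1 was then lower in 6 of 7 pairs, while Rcan3, Crtc1 and Capn2 stayed higher in 7.

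**Figure D1:**
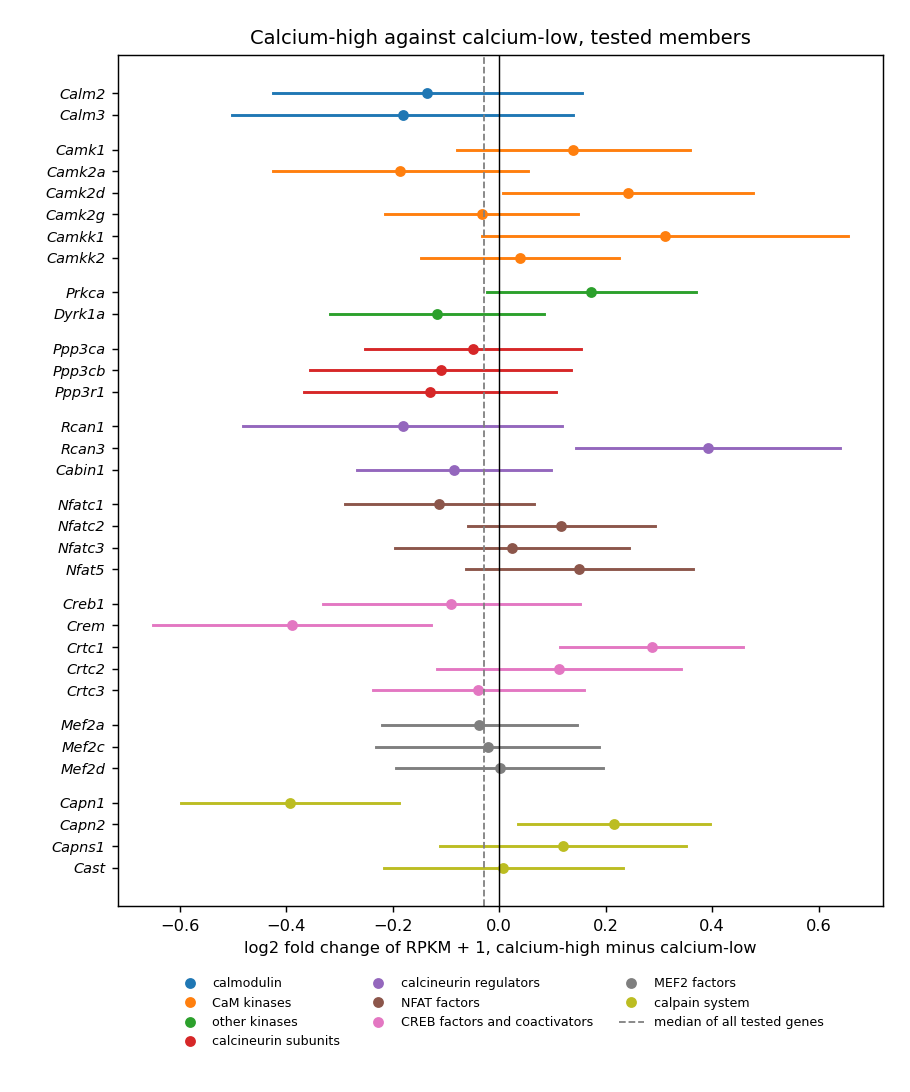
Log2 fold change of RPKM + 1, calcium-high minus calcium-low, for the 32 tested members by role; points are estimates, bars 95% intervals of the fit with the replicate block, and the dashed line the median of all tested genes (-0.03). Only the bars of Camk2d, Rcan3, Crtc1 and Capn2 lie wholly above 0 and only those of Crem and Capn1 wholly below; these intervals are not adjusted for the number of genes.

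Calmodulin itself did not pass the test. Calm2 was the most abundant member, with a lowest, median and highest value of 28.7, 32.1 and 45.1 RPKM in calcium-high and 22.9, 32.5 and 73.2 RPKM in calcium-low. The groups overlapped, and the highest value was that of calcium-low replicate 3. Its log2 fold change was -0.14 ± 0.13 (SE with the block, n = 7 pairs; limma adjusted p = 0.992 without the block and 0.711 with it). Without replicate 3 the sign turned, at 0.01. Calm3 encodes the same protein and had 10.3, 19.6 and 27.0 RPKM in calcium-high against 14.1, 20.5 and 23.5 in calcium-low, with a log2 fold change of -0.18 (limma adjusted p = 0.646 with the block), or -0.09 without replicate 3. Calm2 exceeded Calm3 in 14 of 14 libraries, at means of 37.2 and 18.9 RPKM.

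Among the CaM kinases, 6 of 9 genes were tested and none was called. Camk1, which CaM kinase kinase activates, had the highest mean of the role group (7.17 RPKM), with 5.25, 7.77 and 9.46 RPKM as lowest, median and highest in calcium-high and 3.09, 7.50 and 8.80 in calcium-low. These groups overlapped, and both lowest values came from replicate 3. Its log2 fold change was 0.14 ± 0.10 (SE with the block; limma adjusted p = 0.991 without and 0.592 with it), and 0.06 without replicate 3. Exons of Camk1 overlap those of Ogg1 on the opposite strand (2.34 RPKM), and no protocol names a strand-specific step, so reads of the overlap cannot be told apart.

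Camk2d, a catalytic subunit of CaM kinase II (chr3:126596302-126846326, GRCm38), was at 2.04, 3.07 and 3.79 RPKM in calcium-high and at 1.87, 2.42 and 2.73 RPKM in calcium-low. Calcium-high was higher in 6 of 7 pairs, and the exception was replicate 3. The log2 fold change was 0.24 ± 0.11 (SE with the block; limma adjusted p = 0.734 without and 0.344 with it), and 0.31 without replicate 3 (0.220 and 0.168). It was called with limma-voom, at 0.40 (adjusted p = 0.0454). The other subunits were ordered by level: Camk2g (mean 6.07 RPKM) exceeded Camk2d (2.68) in 14 of 14 libraries without overlap, Camk2d and Camk2a (2.51) overlapped, and Camk2b (0.490) lay below Camk2a in all 14. Camkk2, the kinase that activates CaM kinases I and IV and AMPK, had a mean of 6.45 RPKM and exceeded Camkk1 (2.14) in 14 of 14 libraries. For Camkk1 the labels list only copies with a suffix, and the copy with the higher mean was used. The log2 fold changes of Camk2a, Camk2g, Camkk1 and Camkk2 were -0.19, -0.03, 0.31 and 0.04 (limma adjusted p = 0.495, 0.907, 0.420 and 0.893 with the block), and without replicate 3 those of Camk2g and Camkk2 were -0.01 and 0.01.

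The other CaM kinase genes were below the filter. Camk1d ranged from 0.491 to 1.61 RPKM, Camk2b from 0.223 to 1.02 and Camk4, a CaM kinase of T cells and neurons, from 0.0286 to 0.294.

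Of the other kinases, Dyrk1a, which phosphorylates NFAT and so favours its export from the nucleus, had 4.82, 5.51 and 7.29 RPKM as lowest, median and highest in calcium-high and 5.05, 5.62 and 9.72 in calcium-low. The highest library of each group was replicate 3, and the groups overlapped. Its log2 fold change was -0.12 ± 0.09 (SE with the block; limma adjusted p = 0.991 without and 0.632 with it), and -0.07 without replicate 3. Prkca, a protein kinase C that calcium and diacylglycerol activate, was higher in calcium-high in 6 of 7 pairs, at 2.37 ± 0.498 against 2.01 ± 0.576 RPKM (SD, n = 7), and was not called (limma adjusted p = 0.938 without and 0.432 with the block). The second calcium-dependent protein kinase C, Prkcb, fell under the filter with a mean of 0.793 RPKM. It was at 0.335, 1.19 and 1.35 RPKM in calcium-high and at 0.278, 0.521 and 0.853 in calcium-low, higher in calcium-high in 6 of 7 pairs. Replicate 3 again went the other way, with 0.335 against 0.853 RPKM. In replicates 4 to 7 the groups stood apart, at 1.13 to 1.35 and 0.278 to 0.534 RPKM. In a limma fit with no filter its log2 fold change was 0.41 ± 0.13 (SE; adjusted p = 0.344).

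Calcineurin was present with catalytic and regulatory subunits, and none of the 3 tested was called. Ppp3r1, the regulatory subunit B that binds calcium, had the highest mean and was at 4.88, 6.11 and 10.9 RPKM in calcium-high and at 5.10, 5.28 and 16.7 in calcium-low. The 6 libraries of replicates 1 to 3 were all above the 8 of replicates 4 to 7, and within that split the calcium groups overlapped. Its log2 fold change was -0.13 ± 0.11 (SE with the block; limma adjusted p = 0.995 without and 0.657 with it), and -0.06 without replicate 3. Exons of Ppp3r1 overlap those of Wdr92 on the same strand (1.70 RPKM). Among catalytic subunits, Ppp3ca (mean 6.02 RPKM) and Ppp3cb (4.88) overlapped, and Ppp3cc, at 0.244 to 1.09 RPKM, was below the filter. The log2 fold changes of Ppp3ca and Ppp3cb were -0.05 and -0.11 (limma adjusted p = 0.869 and 0.720 with the block), and that of Ppp3cb was -0.00 without replicate 3.

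Rcan3 was the calcineurin regulator with the largest difference. Proteins of the RCAN family bind calcineurin and modulate it, and Rcan1 is known as a target of NFAT. Rcan3 lies on the minus strand at chr4:135412308-135433853 (GRCm38) and was at 2.32, 2.96 and 3.47 RPKM in calcium-high and at 1.45, 1.90 and 2.53 RPKM in calcium-low as lowest, median and highest, from 184 to 627 reads per library. Calcium-high was higher in 7 of 7 pairs although the groups overlapped. On the log2 scale the difference was 0.39 ± 0.11 (SE with the block; limma adjusted p = 0.263 without and 0.134 with it). It was called with limma-voom at 0.79 (adjusted p = 0.000192), and in the blocked fit after median-of-ratios scaling at 0.40 (adjusted p = 0.0350), where 3.29% of all genes were called.

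In replicates 4 to 7 alone Rcan3 rose: its calcium-high libraries were at 2.71 to 3.47 RPKM and its calcium-low libraries at 1.45 to 1.90 RPKM. The log2 fold change there was 0.62 ± 0.10 (SE; limma adjusted p = 0.00270), in a fit that called 3 of 33 members and 8.52% of all genes. In replicates 1 to 3 it was 0.09 ± 0.14 (SE; limma adjusted p = 0.744). The difference between the sets was 0.52 ± 0.15 (SE; limma adjusted p = 0.105 without and 0.0656 with the block). Over all tested genes the medians were 0.11 in replicates 4 to 7, -0.20 in replicates 1 to 3 and 0.31 for the difference, so part of it was shared by genes at large.

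Rcan1 had lowest, median and highest values of 0.926, 1.47 and 2.61 RPKM in calcium-high and 1.24, 1.93 and 2.29 in calcium-low, which overlapped, and was not called (log2 fold change -0.18, and -0.09 without replicate 3; limma adjusted p = 0.954 without and 0.615 with the block). Rcan3 exceeded Rcan1 in 10 of 14 libraries, and Rcan2 was at 0 to 0.325 RPKM, below the filter. Cabin1, which binds calcineurin and MEF2 and restrains both, had the highest mean of the regulators, with 6.32, 9.15 and 10.7 RPKM in calcium-high and 6.95, 9.33 and 10.0 in calcium-low. Its groups overlapped, and it was not called (log2 fold change -0.08 ± 0.08, SE with the block; limma adjusted p = 0.992 without and 0.711 with it).

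The upstream sequences of Rcan1 and Rcan3 are shown because these related genes differed in how they lay between the groups. Each is the 250 bases before an annotated start in RefSeq (GRCm38.p6), read 5′ to 3′ on the minus strand, with matches in capitals to the NFAT core GGAAA and the cyclic AMP response element (CRE), as its short form TGACG or its full form TGACGTCA, searched on both strands. The short form is contained in the full one, so a full match is also a match of the short form on each strand. The window of Rcan1 at chr16:92400079-92400328 lies before the more downstream of its starts, and that of Rcan3 is chr4:135433806-135434055.
Rcan1: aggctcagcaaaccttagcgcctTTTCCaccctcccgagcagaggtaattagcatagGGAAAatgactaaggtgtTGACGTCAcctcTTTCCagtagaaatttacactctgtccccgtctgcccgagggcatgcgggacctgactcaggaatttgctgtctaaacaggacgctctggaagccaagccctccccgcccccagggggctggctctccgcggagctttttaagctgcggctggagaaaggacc
Rcan3: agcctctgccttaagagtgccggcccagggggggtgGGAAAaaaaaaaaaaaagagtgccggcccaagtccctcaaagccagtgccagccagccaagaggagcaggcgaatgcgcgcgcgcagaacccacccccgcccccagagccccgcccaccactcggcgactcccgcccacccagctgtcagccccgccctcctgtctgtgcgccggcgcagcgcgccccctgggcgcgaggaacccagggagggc
The Rcan1 window holds 3 NFAT cores and the full CRE, and was the only member window with a full CRE, which 1.55% of all 32851 windows hold. The other Rcan1 window holds none of these motifs, and that of Rcan3 a single NFAT core. The core is short and occurs in 55.6% of all windows and in 21 of the 44 windows of the 30 members that have one (47.7%), while the short CRE occurs in 17.8% of all windows and in 7 of the 44.

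The NFAT factors were ordered by level rather than by calcium group. Nfat5, the member of the family that responds to osmotic stress and lacks the calcineurin docking region, had 8.28, 10.8 and 15.7 RPKM as lowest, median and highest in calcium-high and 6.49, 8.65 and 16.8 in calcium-low. These overlapped, and it was not called (log2 fold change 0.15 ± 0.10, SE with the block; limma adjusted p = 0.992 without and 0.547 with it). Nfat5 and Nfatc3 did not differ beyond their spread, at means of 10.9 and 10.2 RPKM. Nfatc3 exceeded Nfatc1 (5.99 RPKM) in 14 of 14 libraries without overlap, Nfatc1 exceeded Nfatc2 (4.04) in 14 of 14 with overlapping ranges, and Nfatc4 was at 0.0108 to 0.227 RPKM, below the filter. The log2 fold changes of the calcineurin-dependent factors were -0.11 for Nfatc1, 0.12 for Nfatc2 and 0.02 for Nfatc3 (0.08 without replicate 3), and none was called (limma adjusted p = 0.591, 0.576 and 0.946 with the block).

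Crem had the largest difference of the CREB group, and its products include both activators and the inducible repressor ICER. Crem lies at chr18:3266048-3337748 (GRCm38) and was at 1.30, 2.02 and 3.62 RPKM in calcium-high and at 2.41, 2.91 and 3.92 RPKM in calcium-low, from 191 to 866 reads per library. Calcium-high was lower in 6 of 7 pairs, and the exception was replicate 3 with 3.62 against 2.91 RPKM. The log2 fold change was -0.39 ± 0.12 (SE with the block; limma adjusted p = 0.510 without and 0.162 with it). Without replicate 3 Crem was called, at -0.49 (limma adjusted p = 0.0477 without and 0.0224 with the block), where 1.23% and 3.17% of all genes were called. Without calcium-high replicate 3 alone the adjusted p was 0.0439. In replicates 4 to 7 the groups did not overlap, at 1.30 to 2.17 and 2.66 to 3.92 RPKM, and Crem fell by 0.60 on the log2 scale (SE 0.13; limma adjusted p = 0.0142). In replicates 1 to 3 the log2 fold change was -0.11 ± 0.19 (SE), and the difference between the sets did not pass the test (limma adjusted p = 0.169 without and 0.0904 with the block).

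Crtc1, a coactivator that calcineurin frees to enter the nucleus and join CREB, was higher in calcium-high in 7 of 7 pairs. It lies on the minus strand at chr8:70382355-70439579 (GRCm38) and had 3.80, 7.12 and 7.86 RPKM in calcium-high and 3.18, 5.21 and 5.97 RPKM in calcium-low. The groups overlapped, and in each the lowest values were those of replicates 2 and 3. On the log2 scale the difference was 0.29 ± 0.08 (SE with the block; limma adjusted p = 0.818 without and 0.116 with it). In the blocked fit after median-of-ratios scaling it was called at 0.28 (adjusted p = 0.0336), and so was it in replicates 4 to 7 alone at 0.37 ± 0.08 (SE; limma adjusted p = 0.0157), with 7.12 to 7.86 against 5.17 to 5.97 RPKM. Crtc2, the related coactivator with the highest mean of the CREB group, had 3.86, 6.49 and 8.14 RPKM in calcium-high and 4.71, 5.48 and 6.44 in calcium-low and was not called (log2 fold change 0.11 ± 0.11, SE with the block, and 0.17 without replicate 3; limma adjusted p = 0.991 without and 0.694 with it). Crtc3 had a log2 fold change of -0.04 (limma adjusted p = 0.895 with the block). Creb1, the factor that these proteins bind, was lower in calcium-high in 6 of 7 pairs, at means of 3.54 against 4.02 RPKM and a log2 fold change of -0.09 (limma adjusted p = 0.782 with the block), or -0.04 without replicate 3.

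The MEF2 factors, which class II histone deacetylases hold in check, lay closest to 0. Mef2d had 9.25, 11.8 and 13.3 RPKM as lowest, median and highest in calcium-high and 9.81, 11.6 and 12.7 in calcium-low, and a log2 fold change of 0.00 ± 0.09 (SE with the block), with a 95% interval from -0.19 to 0.19. Mef2a was at -0.04 and Mef2c at -0.02, and none of the 3 was called (limma adjusted p = 0.998, 0.893 and 0.952 with the block). Without replicate 3 Mef2d, Mef2a and Mef2c were at -0.06, -0.02 and 0.04. Mef2d and Mef2c overlapped in level, and Mef2c (mean 10.1 RPKM) exceeded Mef2a (3.69) in 14 of 14 libraries without overlap.

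The calpains pointed in opposite directions. Capn1, the large subunit of the calpain that needs micromolar calcium, lies on the minus strand at chr19:5988545-6015897 (GRCm38) and was at 2.35, 4.62 and 6.19 RPKM in calcium-high and at 4.14, 6.38 and 7.84 RPKM in calcium-low, from 107 to 847 reads per library. It was lower in calcium-high in 7 of 7 pairs, while the groups overlapped. The log2 fold change was -0.39 ± 0.09 (SE with the block; limma adjusted p = 0.700 without and 0.0738 with it). It was called with limma-voom at -0.53 (adjusted p = 0.0358), and with the block without replicate 3 at -0.42 (limma adjusted p = 0.0450). The sets gave -0.43 in replicates 1 to 3 and -0.37 in replicates 4 to 7, and the difference between them was 0.06 ± 0.23 (SE; limma adjusted p = 0.869).

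Capn2, the large subunit of the calpain that needs millimolar calcium, was higher in calcium-high in 7 of 7 pairs. It lies on the minus strand at chr1:182467260-182517608 (GRCm38) and had 2.63, 3.42 and 3.71 RPKM in calcium-high and 2.16, 2.90 and 3.27 in calcium-low, which overlapped. On the log2 scale the difference was 0.22 ± 0.08 (SE with the block; limma adjusted p = 0.734 without and 0.263 with it). In the log2 fold change without replicate 3 Capns1 was at 0.20 and Cast at 0.06, against 0.12 and 0.01 with it. Capns1, the small subunit that both share, had the highest mean of the group, with 21.9, 37.2 and 49.1 RPKM in calcium-high and 27.3, 30.5 and 37.7 in calcium-low. It passed only in limma-voom with the block, at 0.19 (adjusted p = 0.0490), and in replicates 4 to 7 with the block, at 0.32 (limma adjusted p = 0.0363). The inhibitor calpastatin, Cast, had a log2 fold change of 0.01 ± 0.10 (SE with the block) and overlaps Erap1 on the opposite strand (11.0 RPKM).

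The windows before the starts of both large subunits are shown because these genes differed in opposite directions in every pair of the values as deposited, and in 6 of 7 pairs for Capn1 after median-of-ratios scaling. They are chr19:6015826-6016075 for Capn1 and chr1:182517611-182517860 for Capn2, both on the minus strand (RefSeq, GRCm38.p6), with the NFAT core in capitals.
Capn1: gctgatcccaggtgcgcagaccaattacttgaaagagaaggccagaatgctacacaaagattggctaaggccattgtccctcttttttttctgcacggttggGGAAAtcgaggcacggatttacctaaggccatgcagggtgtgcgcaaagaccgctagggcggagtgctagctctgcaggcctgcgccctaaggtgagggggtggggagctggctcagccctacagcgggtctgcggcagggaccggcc
Capn2: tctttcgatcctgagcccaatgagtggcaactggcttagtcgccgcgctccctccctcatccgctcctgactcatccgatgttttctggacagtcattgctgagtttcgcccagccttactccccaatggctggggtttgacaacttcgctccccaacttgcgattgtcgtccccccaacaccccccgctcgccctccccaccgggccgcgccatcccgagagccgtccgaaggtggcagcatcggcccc
This Capn1 window holds an NFAT core, while its other window (chr19:6015248-6015497, 60.8% G or C) and the Capn2 window hold none of the 3 motifs, and 62.8% of the bases in the Capn2 window are G or C against 58.8% in the Capn1 window shown and a median of 52.4% over all windows.

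**Figure D2:**
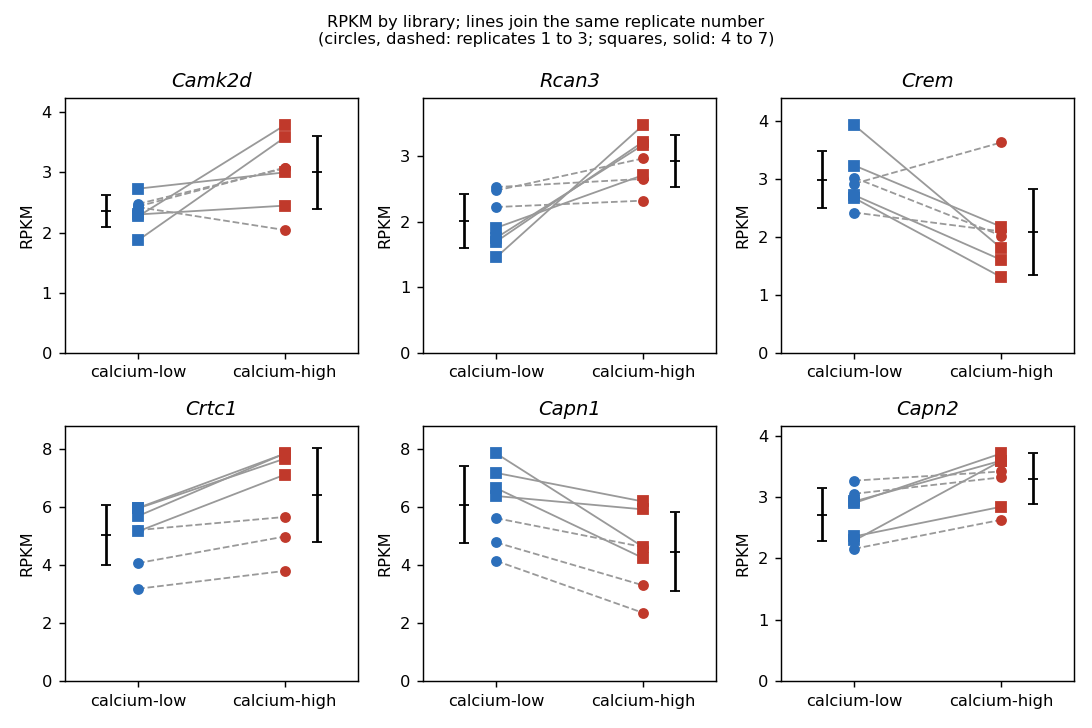
RPKM of the 6 members with an unadjusted p under 0.05, by library; each line joins the calcium-low and calcium-high libraries of one replicate number, and the bars beside the points give the mean and SD of 7 libraries. Rcan3, Crtc1 and Capn2 slope up and Capn1 down in 7 of 7 pairs, while the replicate 3 lines of Camk2d and Crem run against the others.

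Some HSC markers passed the test between the calcium groups in the fit with the replicate block. Without the block none was called, and neither was any other gene. With the replicate block 4 of the 11 HSC markers were called, against 0.917% of all genes. Slamf1, Procr and Fgd5 were higher and Cd34, which is low in the most primitive HSCs, was lower in calcium-high (log2 fold changes 0.63, 0.72, 0.73 and -0.96; limma adjusted p = 0.0337, 0.0364, 0.0364 and 0.0272). The summed HSC markers were 191 to 363 RPKM in calcium-high and 187 to 295 in calcium-low, and their part in the differences of Rcan3, Crtc1, Crem and the calpains was not tested. In these bulk libraries fewer cells of a type and less RNA per cell cannot be told apart. Of the 32 tested members, 7 had their highest value of all libraries in calcium-low replicate 3, and the share over all genes was not counted. That library had 759 RPKM of neutrophil markers, not all of them raised. Its erythroid markers summed to 334 RPKM, against 129 to 171 in the other calcium-low libraries. The part of such cells was not tested.

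Which replicate set a library belonged to separated the members more than calcium did. The sets were replicates 1 to 3 and 4 to 7, a split taken from the order of the samples and known to matter from earlier results of these data. Between them 20 of 32 members were called, 11 higher and 9 lower in replicates 4 to 7, against 48.8% of all genes. In 11 of 32 members the 6 libraries of one set did not overlap the 8 of the other, against 17.1% of all genes.

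Calcineurin subunits and other members differed unequally between the sets. Ppp3cb was at 6.11 to 11.1 RPKM in replicates 1 to 3 and at 2.75 to 3.36 in replicates 4 to 7, and fell by 1.02 on the log2 scale (SE 0.11; limma adjusted p = 5.64e-06). Ppp3r1 fell by 0.91 (limma adjusted p = 2.74e-05), while Ppp3ca, the other catalytic subunit, was at means of 6.03 and 6.01 RPKM (log2 difference -0.00 ± 0.09, SE). Other members lower in replicates 4 to 7 without overlap were Nfat5 (-0.69), Creb1 (-0.66), Calm2 (-0.66), Cast (-0.64), Prkca (-0.40) and Mef2c (-0.36). Higher without overlap were Camkk2 (0.55), Nfatc1 (0.42) and Cabin1 (0.40). Related genes thus lay on opposite sides: Calm3 was higher (0.44; limma adjusted p = 0.0251) where Calm2 was lower, and Nfatc1 higher where Nfat5 was lower. These 11 members were picked for lying apart between the sets, so in them replicate 3 lies with replicates 1 and 2 by that choice. In the Y-linked genes replicate 3 lay with replicates 4 to 7. The sets differ in depth and, through the Y-linked genes of replicates 1 and 2, partly in the sex of the cells. The part of sex was not tested, and depth cannot be told apart from any other difference between the sets.

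**Figure D3:**
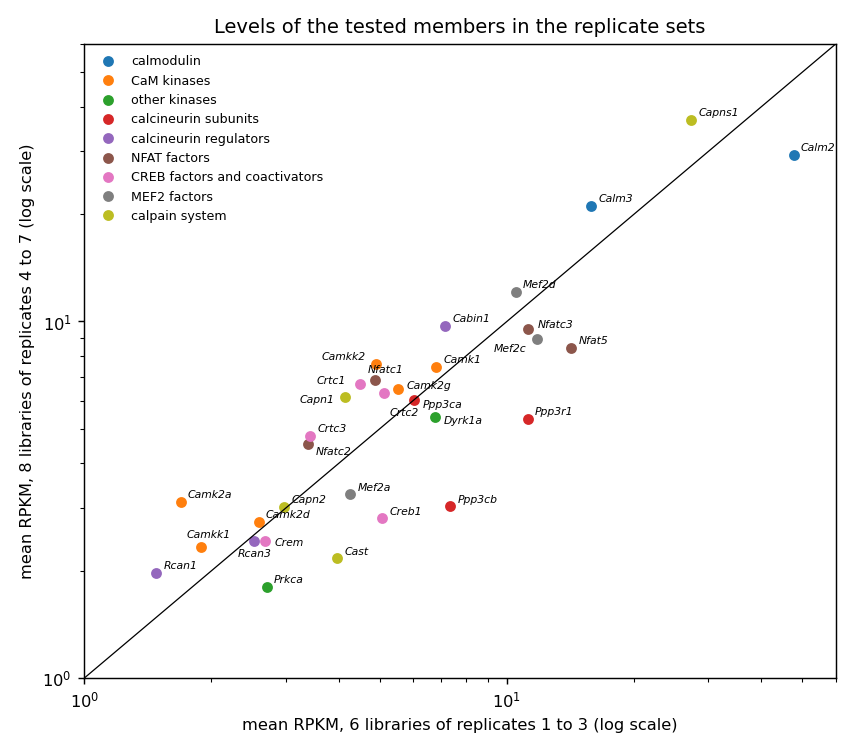
Mean RPKM of the 32 tested members in the 6 libraries of replicates 1 to 3 (x axis) and the 8 of replicates 4 to 7 (y axis), both on log scales, with the line of equality. Ppp3cb and Ppp3r1 lie farthest below the line, at 7.34 against 3.03 and 11.2 against 5.34 RPKM, and Ppp3ca lies on it.

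The calcium difference within each set was shifted for all genes, with a median of -0.20 in replicates 1 to 3 and 0.11 in replicates 4 to 7, and for the members it was -0.14 and 0.10. In replicates 4 to 7 the calcium groups did not overlap in 7 of 32 members, against 16.9% of all genes: in RPKM, Camk2g, Prkca, Rcan3, Crtc1 and Crtc2 were higher in calcium-high and Crem and Capn1 lower. Camk2g, at 0.08, lay below the median of all genes in that set. The difference between the sets was called in 0 members and 0% of genes without the block, and in 1 member, Calm3, and 1.66% of genes with it. Calm3 was at 10.3 to 13.7 RPKM in calcium-high and 14.1 to 23.5 in calcium-low in replicates 1 to 3, and at 19.6 to 27.0 and 17.4 to 21.4 RPKM in replicates 4 to 7. Its log2 fold change was -0.65 in the first and 0.17 in the second, a difference of 0.83 ± 0.16 (SE; limma adjusted p = 0.0463 with the block and 0.105 without).

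**Figure D4:**
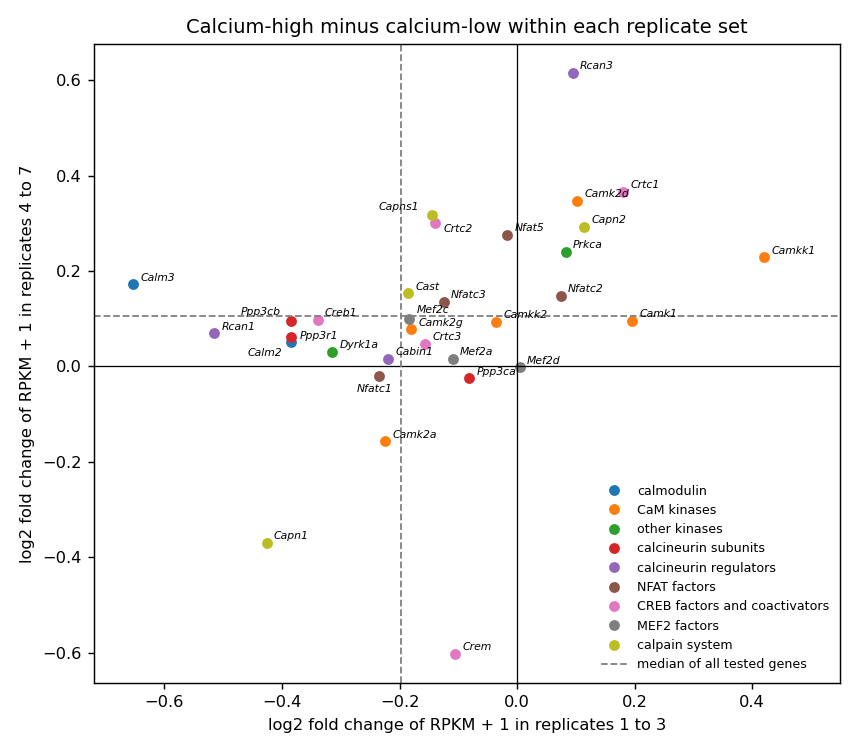
Log2 fold change of RPKM + 1, calcium-high minus calcium-low, in replicates 1 to 3 (x axis) and in replicates 4 to 7 (y axis) for the 32 tested members, with dashed lines at the medians of all tested genes (-0.20 and 0.11). Capn1 is below and Rcan3 and Crtc1 above 0 in both sets, Crem is at -0.11 and -0.60, and Calm3 is at -0.65 and 0.17.

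The wider pathway was examined through 85 further genes in 6 lists, of which 52 were tested. These lists were chosen by role, also with earlier results of these data known. None was called with or without the block, and 3 higher and 8 lower in calcium-high had an unadjusted p under 0.05 with the block, against 13.9% of all genes. With limma-voom 3 rose and 7 fell, against 7.06% of all genes. In replicates 4 to 7 alone 4 rose and 6 fell of 51 tested, against 8.52% of all genes. Of the list of transcripts that textbooks give as induced through calcineurin and NFAT or through CREB, 8 of 15 were tested, with a median log2 fold change of -0.29 against -0.03 for all genes. Nr4a1, an orphan nuclear receptor induced within minutes of stimulation, was at 46.5 to 77.4 RPKM in calcium-high and 54.0 to 153 in calcium-low, lower in 6 of 7 pairs (log2 fold change -0.56 ± 0.16, SE; limma adjusted p = 0.724 without and 0.121 with the block). Its relatives Nr4a2 and Nr4a3 were also lower in 6 of 7 pairs each, with log2 fold changes of -0.37 and -0.60 (limma adjusted p = 0.223 and 0.121 with the block). In replicates 4 to 7 alone 5 of the 7 tested there fell: Nr4a1 by 0.93, Nr4a2 by 0.61 and Nr4a3 by 0.77 on the log2 scale (limma adjusted p = 7.14e-05, 0.00705 and 0.0354), and Fos and Per1, the last pair named after their values were seen (adjusted p = 0.0225 and 0.00560). Junb and Dusp1 did not pass there (-0.27 and 0.03; limma adjusted p = 0.170 and 0.842). Over all libraries Dusp1 and Il4 were higher in calcium-high in 5 of 7 pairs each, with log2 fold changes of 0.03 and 0.24. In replicates 1 to 3 the list had a median log2 fold change of -0.07 against -0.20 for all genes, with 6 of 8 above that median, Nr4a1 at -0.07 (limma adjusted p = 0.891) and Per1 at 0.30 (0.419). The difference between the sets was called for Nr4a1 and Per1 with the block (-0.87 and -0.75; limma adjusted p = 0.0463 and 0.0481) and not without it (0.105 for both).

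Among calmodulin-dependent enzymes and binders, Mylk, the myosin light chain kinase that calmodulin switches on, was higher in calcium-high in 7 of 7 pairs, at 1.87 ± 0.394 against 1.06 ± 0.430 RPKM (SD, n = 7; log2 fold change 0.49; limma adjusted p = 0.297 without and 0.0859 with the block). Pde1b, a calmodulin-activated phosphodiesterase, was higher in 6 of 7 pairs, at 4.24 ± 1.34 against 2.45 ± 0.941 RPKM (0.60; 0.527 and 0.0603). Both rose in replicates 4 to 7 alone (limma adjusted p = 0.00142 and 0.000609). Marcksl1, which binds calmodulin and is a protein kinase C substrate, was lower in 7 of 7 pairs (-0.53; 0.671 and 0.133), read from the copy of its label with the highest mean. None of the 3 passed the test over all libraries on RPKM, with or without the block. With limma-voom all 3 did (adjusted p = 0.000169, 0.000856 and 0.0297 for Mylk, Pde1b and Marcksl1), and after median-of-ratios scaling with the block Mylk and Pde1b did (limma adjusted p = 0.0245 and 0.0211).

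In the list of kinases and partners of NFAT and calcineurin, Ppia, the cyclophilin through which cyclosporin blocks calcineurin, was at 220 ± 51.5 against 287 ± 41.9 RPKM (SD, n = 7) and lower in 6 of 7 pairs (log2 fold change -0.40; limma adjusted p = 0.588 without and 0.134 with the block). Csnk1a1 and Dyrk2, kinases of NFAT, were at -0.16 and -0.15. Of the CREB and MEF2 partners, Sik1, a CREB target that phosphorylates the CRTC proteins and holds them in the cytoplasm, was lower in 6 of 7 pairs, at 29.0 ± 6.09 against 39.8 ± 11.8 RPKM (-0.41; limma adjusted p = 0.737 and 0.107). It fell in replicates 4 to 7 by 0.61 (limma adjusted p = 0.000754). Prkar1a and Atf1 were at -0.15 and -0.24. Capn5, an atypical calpain, was higher in 6 of 7 pairs (0.25; limma adjusted p = 0.932 and 0.210), with Capn10 at -0.12 and Capn7 at -0.09. In the remaining protein kinase C genes the log2 fold changes of Prkce, Prkcq and Prkd3 were -0.17, 0.18 and -0.13, and none was called with or without the block. Prkcq rose with limma-voom (0.45; adjusted p = 0.0243) and in replicates 4 to 7 alone (0.47; limma adjusted p = 0.0222). Limma-voom also called Ppia, Sik1, Nr4a1, Nr4a2 and Nr4a3 lower (adjusted p = 0.0252, 0.0153, 0.00544, 0.00497 and 0.00440), and Ppia passed after median-of-ratios scaling with the block (limma adjusted p = 0.0266). Without replicate 3 and with the block, Mylk and Pde1b rose and Sik1 and the 3 Nr4a genes fell (limma adjusted p = 0.0335, 0.0306, 0.0131, 0.0111, 0.0242 and 0.00650 in that order).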

How the data were processed

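RNA of 14 libraries of 100 HSCs each was analysed. The values deposited by the authors are RPKM, 1 table per library; the headers name no unit, and it was read from the values. The submitters' processing notes name edgeR, GRCm38 and mm10; the aligner, counter and annotation are not given in the sources used here. Of 48737 labels per table, 23 that had been turned into numbers were left out. Whole reads recovered from the RPKM steps, within 0.02 reads, gave library totals of 14.3 to 37.2 M, and all 9921 genes tested resolved. The share of reads in listed genes was 25.0 to 32.5%.

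Members and lists were chosen with earlier results of these data known. Members were taken by label, or as the copy with the highest mean where the label carries a suffix (Camkk1, Dyrk1a). Named in full were members with an unadjusted p under 0.05 in the fit without or with the block, the most abundant member of each role, those below the filter by range, and the 3 genes per pathway list with the smallest p in the blocked fit.

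limma 3.58.1 (R 4.3.3, eBayes with a trend) was fitted to log2(RPKM + 1) of genes averaging at least 1 RPKM, at a Benjamini-Hochberg adjusted p under 0.05 over all genes tested. The design assumed counts or RPKM, and the RPKM form was used. The fits were tested on simulated reads with known fold changes. The simulation had no difference between replicate sets, no pairing and no outlying library, so it cannot show how the fits handle these. Deviations of libraries with the same number from their group means correlated at 0.384 to 0.715 in all 7 pairs. The labels give only the number, and 5 of the 14 libraries correlated best with their own number, so pairing by number is an assumption. The blocked value is printed beside the members named in full. Alternatives were other scalings, pseudocounts of 0.1 and 5, other filters, limma-voom with library weights on the recovered reads, each replicate set alone, and leaving out libraries; fits with the replicate set as a term and of the difference between sets were added after seeing the data. Gene coordinates are of GRCm38 (GENCODE), and upstream windows of RefSeq. Tables and figures were made with Python 3.11.15, numpy 2.4.6, pandas 2.3.3, scipy 1.17.1 and matplotlib 3.10.9.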

Additional observations from a re-analysis of the deposited data

Results flagged for a closer look

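A library far from the others of its group was found in 4 of the 64 groups of 7 libraries looked at among the tested members, where chance gives about 1 in 20, and all 4 were libraries of replicate 3. Camk1 was at 3.09 RPKM in calcium-low replicate 3, where the rest of its group lay between 6.37 and 8.80. Dyrk1a was at 9.72 RPKM in the same library and at 7.29 RPKM in calcium-high replicate 3, where the next values of those groups were 6.73 and 5.69. Crem was at 3.62 RPKM in calcium-high replicate 3, against 1.30 to 2.17 RPKM in the other calcium-high libraries.

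Calm3 differed in its calcium difference between the replicate sets. The log2 fold change in replicates 4 to 7 exceeded that in replicates 1 to 3 by 0.83 with the replicate block (limma adjusted p = 0.0463), and by the same amount without it (adjusted p = 0.105). The median of this difference over all tested genes was 0.31.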

How the results depend on the processing

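The median log2 fold change of the members moved by less than its spread between pairs in all 38 alternatives, and the 6 members with an unadjusted p under 0.05 kept their direction in every alternative run for them. That spread, an SD of 0.15, includes the shift between the replicate sets and is a wide measure. The sign of the median turned between the sets, at -0.14 in replicates 1 to 3 and 0.10 in replicates 4 to 7. The counts of calls did move. With the replicate block 91 genes were called, with median-of-ratios scaling 4, with upper-quartile scaling 6, with no filter 1 and with a mean of 5 RPKM or more 1. Added to the main fit, the block changed no call among members or pathway genes. The block with median-of-ratios scaling called 326 genes, 2 members and 3 pathway genes. limma-voom called 700 genes, 4 members and 10 pathway genes, and with the block 839, 6 and 8. Replicates 4 to 7 alone gave 831 genes, 3 members and 10 pathway genes, and with the block 764, 4 and 10, while replicates 1 to 3 alone with the block gave 1 gene. Without both libraries of replicate 3, 122 genes, 1 member and 2 pathway genes were called, and with the block 313, 2 and 6. The replicate set as a term gave 51 genes. Over fits without a replicate or library the counts ran from 0 to 313 genes, 0 to 2 members and 0 to 6 pathway genes; without calcium-high replicate 3 it was 101, without calcium-low replicates 1, 2 and 3 it was 2, 5 and 21, and with the block without replicates 1, 2, 4, 5, 6 and 7 it was 8, 3, 0, 12, 2 and 0. Why the settings differ was not tested, beyond the smaller number of libraries in some. Of the 14 libraries 5 correlated best with their own number. Depth limits Rcan1 most among the tested members, with 35 reads in its lowest library.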
